A study of Arabidopsis thaliana with 24 samples.

Results

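The CLASSY family of Arabidopsis thaliana comprises 4 genes for putative chromatin remodellers of the Snf2 type, and their transcripts were followed through 24 RNA sequencing libraries of seedlings. The members were taken by their AGI identifiers, which are AT3G42670 for CLSY1, AT5G20420 for CLSY2 (also named CHR42), AT1G05490 for CLSY3 and AT3G24340 for CLSY4, out of 32548 genes in the deposited tables. The family was chosen by a measured value, because CLSY2 was nearly lost in the atx1/2/4/5 libraries. Everything measured in atx1/2/4/5 against Col-0 is therefore given as a description, with no test. All 4 members passed the filter on low values in each of the 3 sets.

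The seedlings were 11 days old and had grown on plates of Murashige and Skoog medium with 16 h of light and 8 h of dark. The libraries form 3 sets, 1 deposited table each and normalised separately, with a pair of wild-type Col-0 libraries in each set, and every genotype has 2 libraries. Set 1 holds ino80, a mutant of the INO80 remodeller gene. Set 2 holds jmj24, a mutant of a JmjC-domain gene, and atx4/5;jmj24, which carries atx4, atx5 and jmj24 together. Set 3 holds atx1/2, atx4/5, atx1/2/4/5 and atx2/3/4/5, which combine mutations of the ATX genes for histone H3 lysine 4 methyltransferases, then jmj24/26/28, and WDR5A_RNAi, a line labelled as RNAi against a COMPASS subunit. The labels give every mutation as homozygous and name no alleles, and nothing in them says that the 2 libraries of a genotype came from separate cultures. The p-values therefore reflect only how far these libraries differ, which may be technical variation. The 6 comparisons of set 3 share 1 pair of Col-0 libraries with each other, including the contrast by which the family was chosen, and the comparisons of set 2 share another pair.

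The normalised columns summed to 18.2 to 29.2 M (megareads), and 1 read was worth 0.834 to 1.21 normalised counts. Some labels were not matched by the transcript of the gene they name. ATX3 was at 740 and 640 normalised counts in the libraries labelled atx2/3/4/5, against 388 and 384 in Col-0. ATX1 was at 568 and 191 in the libraries labelled atx1/2/4/5, against 258 and 257 in Col-0. ATX5 was at 518 and 638 in the libraries labelled atx4/5;jmj24, against 434 and 476 in Col-0, and WDR5A was higher in the libraries labelled WDR5A_RNAi. ATX4 was low in all 4 genotypes named for it, for example 43.6 and 41.9 in atx2/3/4/5 against 502 and 498 in Col-0. Whole seedlings were sequenced, so fewer cells that express a gene and less RNA per cell cannot be told apart.

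CLASSY proteins bring RNA polymerase IV to chromatin. Polymerase IV makes the precursors of small interfering RNAs, which then guide DNA methylation at transposons and repeats in the pathway called RNA-directed DNA methylation. In Arabidopsis, CLSY1 and CLSY2 act together with SHH1, a reader of histone H3 lysine 9 methylation, while CLSY3 and CLSY4 act largely at other loci and are prominent in reproductive tissues. CLSY1 is the member best known for its activity in leaves.

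The genes lie apart in the TAIR10.1 annotation, all on the minus strand, with no annotated gene overlapping any of them. CLSY1 spans chr3:14755798-14760629, CLSY2 chr5:6898790-6904242, CLSY3 chr1:1618504-1623489 and CLSY4 chr3:8831935-8835829. The coding sequences of CLSY1 and CLSY2 were identical at 80.0% of aligned bases, those of CLSY3 and CLSY4 at 68.4%, and the other pairs at 63.3% to 67.2%. The longest run of bases shared by any pair was 35, between CLSY1 and CLSY2, and no stretch of 50 bases was shared by any pair, so a perfectly matching read of 50 coding bases belongs to 1 member. The stretch of 250 bases before the annotated start of CLSY2 is shown because CLSY2 varied widely between genotypes. It is read on the minus strand, 5′ to 3′, from the RefSeq TAIR10.1 sequence, at chr5:6904243-6904492.
CLSY2: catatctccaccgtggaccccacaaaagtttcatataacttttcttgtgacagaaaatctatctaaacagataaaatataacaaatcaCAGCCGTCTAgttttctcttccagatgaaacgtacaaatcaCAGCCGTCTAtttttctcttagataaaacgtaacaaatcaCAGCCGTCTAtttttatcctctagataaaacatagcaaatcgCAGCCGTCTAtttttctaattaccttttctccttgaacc
Capitals mark the word CAGCCGTCTA, which was the 10-base word repeated most often there. It occurred 4 times, from base -162 to base -39 counted at its first letter back from the start of the gene, with 40 to 42 bases from one copy to the next. On both strands, 3 of 27443 stretches of the same length before annotated genes held this word (0.0109%), and only 1, that of CLSY2, held it 4 times or more. Some 10-base word with 4 or more copies on the strand of the gene was present in 97 of the 27443 stretches (0.353%). The stretches of the same length before CLSY3 and CLSY4 did not hold the word. The telo-box AAACCCTA, the site II element TGGGCC, the G-box CACGTG and TATAAA, searched on both strands, were not found before CLSY2, CLSY3 or CLSY4, and were in 4.49%, 13.7%, 6.49% and 47.3% of all stretches. These matches were sought after the values were known and are descriptions of sequence only.

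In wild-type seedlings CLSY1 was by far the most abundant member. In normalised reads per kilobase of exon and per M of the column total, CLSY1 had a median level of 1.91 over the 6 Col-0 libraries, with a range of 1.70 to 3.26. The sets were normalised separately, and CLSY1 was at 3.23 and 3.26 in set 2 but between 1.70 and 2.04 in sets 1 and 3. CLSY2 had a median level of 0.461 (0.338 to 0.646), CLSY4 of 0.206 (0.125 to 0.304) and CLSY3 of 0.107 (0.0592 to 0.149). The ranges of CLSY1 and CLSY2 did not meet any other, while those of CLSY4 and CLSY3 overlapped. The median share of the summed family level over the Col-0 libraries was 75.3% for CLSY1, 15.4% for CLSY2, 6.55% for CLSY4 and 3.32% for CLSY3. Each median was taken separately, so these shares are not the makeup of 1 library. CLSY1 was above each other member in 24 of 24 libraries. CLSY2 was above CLSY4 in 14 of 24 and above CLSY3 in 17 of 24, so the order of the lesser members changed between libraries.

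**Figure D1:**
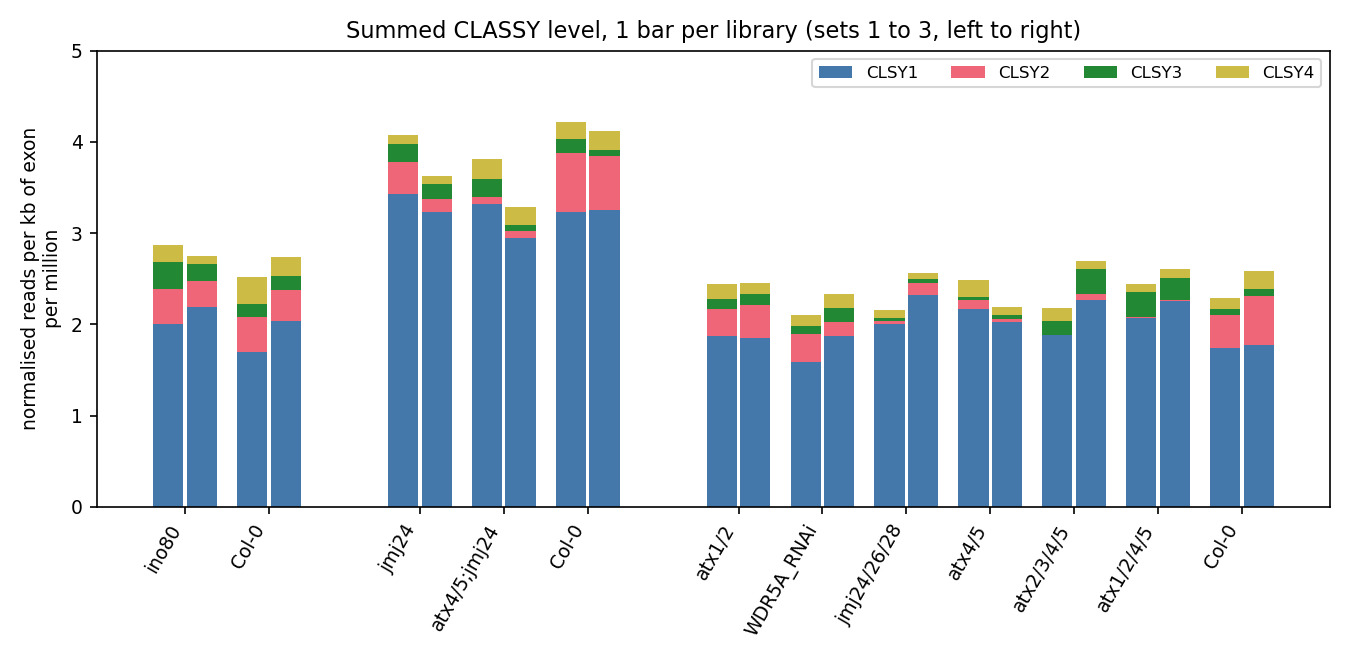
Summed level of the CLASSY genes per library, in normalised reads per kilobase of exon per M of the column total, stacked by member, with 1 bar per library, the sets from left to right and Col-0 at the right of each. The CLSY1 block is the tallest in all 24 libraries, and the CLSY2 block is hardly visible in atx2/3/4/5 and atx1/2/4/5.

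CLSY2, the partner of CLSY1 in polymerase IV recruitment, was lower than in Col-0 in each of the 8 genotypes other than atx1/2/4/5. The fall passed the test in 2 of them, atx2/3/4/5 and atx4/5;jmj24. The genotypes of set 3 were compared with the same Col-0 libraries that the choice of the family used. Their falls, that in atx2/3/4/5 included, are therefore not independent of the choice. The group means in set 3 were spread widely, but the libraries of most neighbouring genotypes in their order overlapped. CLSY2 was at 1.73 and 1.60 normalised counts in atx1/2/4/5, against 45.0 and 63.5 in Col-0, the contrast the family was selected on. In atx2/3/4/5 it was at 0.0293 and 6.70, against the same Col-0 values. The value 0.0293 corresponds to 0 reads, so 1 atx2/3/4/5 library held none and the other few. From the worth of 1 read in each column, the CLSY2 reads were estimated at 4 in the pair of atx1/2/4/5 libraries, 6 in the pair of atx2/3/4/5 libraries and 109 in the pair of Col-0 libraries. The log2 fold change in atx2/3/4/5 was -4.27 ± 0.86 (SE, limma, Benjamini-Hochberg adjusted p = 0.00179). Its size leans on the library with 0 reads, as the other, at 6.70, lay between the atx4/5 libraries at 11.4 and 3.89. In the comparison of atx2/3/4/5 with Col-0, 38.0% of 24843 genes were called, where called means an adjusted p under 0.05. Between the atx2/3/4/5 and atx4/5 libraries, which differ by atx2 and atx3 in their labels, the CLSY2 difference was -1.47 ± 0.86 on the log2 scale and did not pass the test (adjusted p = 0.215), with 36.5% of genes called. This difference turned on 1 library. Without the first atx2/3/4/5 library, the one with 0 reads, it was -0.014 (adjusted p = 1.0), and without the second it was -2.92 (adjusted p = 0.00873). Here and wherever a library was left out, the lone library of its group is assumed to vary like the other groups of the set.

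CLSY2 was at 11.4 and 3.89 normalised counts in atx4/5, at 3.71 and 15.9 in jmj24/26/28, at 37.6 and 18.1 in WDR5A_RNAi and at 35.4 and 43.0 in atx1/2, against 45.0 and 63.5 in Col-0. Every one of these libraries lay below both Col-0 libraries, which were the same pair in each case. For such an order an exact permutation test gives a 2-sided p no lower than 0.333. None of the differences passed the test in the fit of all genotypes of set 3. The log2 fold change was -2.81 ± 0.86 in atx4/5 (adjusted p = 0.116, 3.24% of genes called), -2.61 ± 0.86 in jmj24/26/28 (adjusted p = 0.130, 3.85% called), -1.004 ± 0.86 in WDR5A_RNAi (adjusted p = 0.517, 9.56% called) and -0.44 ± 0.86 in atx1/2 (adjusted p = 0.979, 0.282% called). The large standard error is shared by all of them and includes the gap between the atx2/3/4/5 libraries. With those libraries left out of the fit, an alternative chosen after seeing the data, the standard error was 0.59 and CLSY2 passed the test in atx4/5 (adjusted p = 0.0188) and in jmj24/26/28 (adjusted p = 0.0251). It did not pass in WDR5A_RNAi (adjusted p = 0.322) or atx1/2 (adjusted p = 0.975). From low to high, the group means in set 3 ran 1.66 in atx1/2/4/5, 3.36 in atx2/3/4/5, 7.62 in atx4/5, 9.79 in jmj24/26/28, 27.9 in WDR5A_RNAi, 39.2 in atx1/2 and 54.3 in Col-0. The libraries of neighbouring genotypes overlapped in this order, except between jmj24/26/28 and WDR5A_RNAi and between atx1/2 and Col-0.

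In set 2, which has its own Col-0 libraries, CLSY2 fell in atx4/5;jmj24. CLSY2 was at 8.02 and 9.15 normalised counts in atx4/5;jmj24, against 70.5 and 63.5 in Col-0. The log2 fold change was -2.83 ± 0.42 (limma, adjusted p = 0.00167), and 7.71% of 23740 genes were called. The value was the same but the call was lost with no filter on low values (adjusted p = 0.222) and with no mean-variance trend (adjusted p = 0.105). In jmj24 alone CLSY2 was at 37.4 and 15.2, against the same Col-0 values. Both jmj24 libraries lay below both Col-0 libraries, but they differed widely from each other and the log2 fold change of -1.45 ± 0.42 did not pass the test (adjusted p = 0.103, 2.82% of genes called). The atx4/5;jmj24 libraries also lay below both jmj24 libraries, with a difference of -1.38 ± 0.42 that did not pass (adjusted p = 0.217, 0.746% called). In set 1, CLSY2 was at 29.9 and 22.4 in ino80, against 32.3 and 27.6 in Col-0, and these libraries overlapped. The log2 fold change in ino80 was -0.20 ± 0.28 (adjusted p = 0.654), in a comparison where 22.4% of 22934 genes were called.

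**Figure D2:**
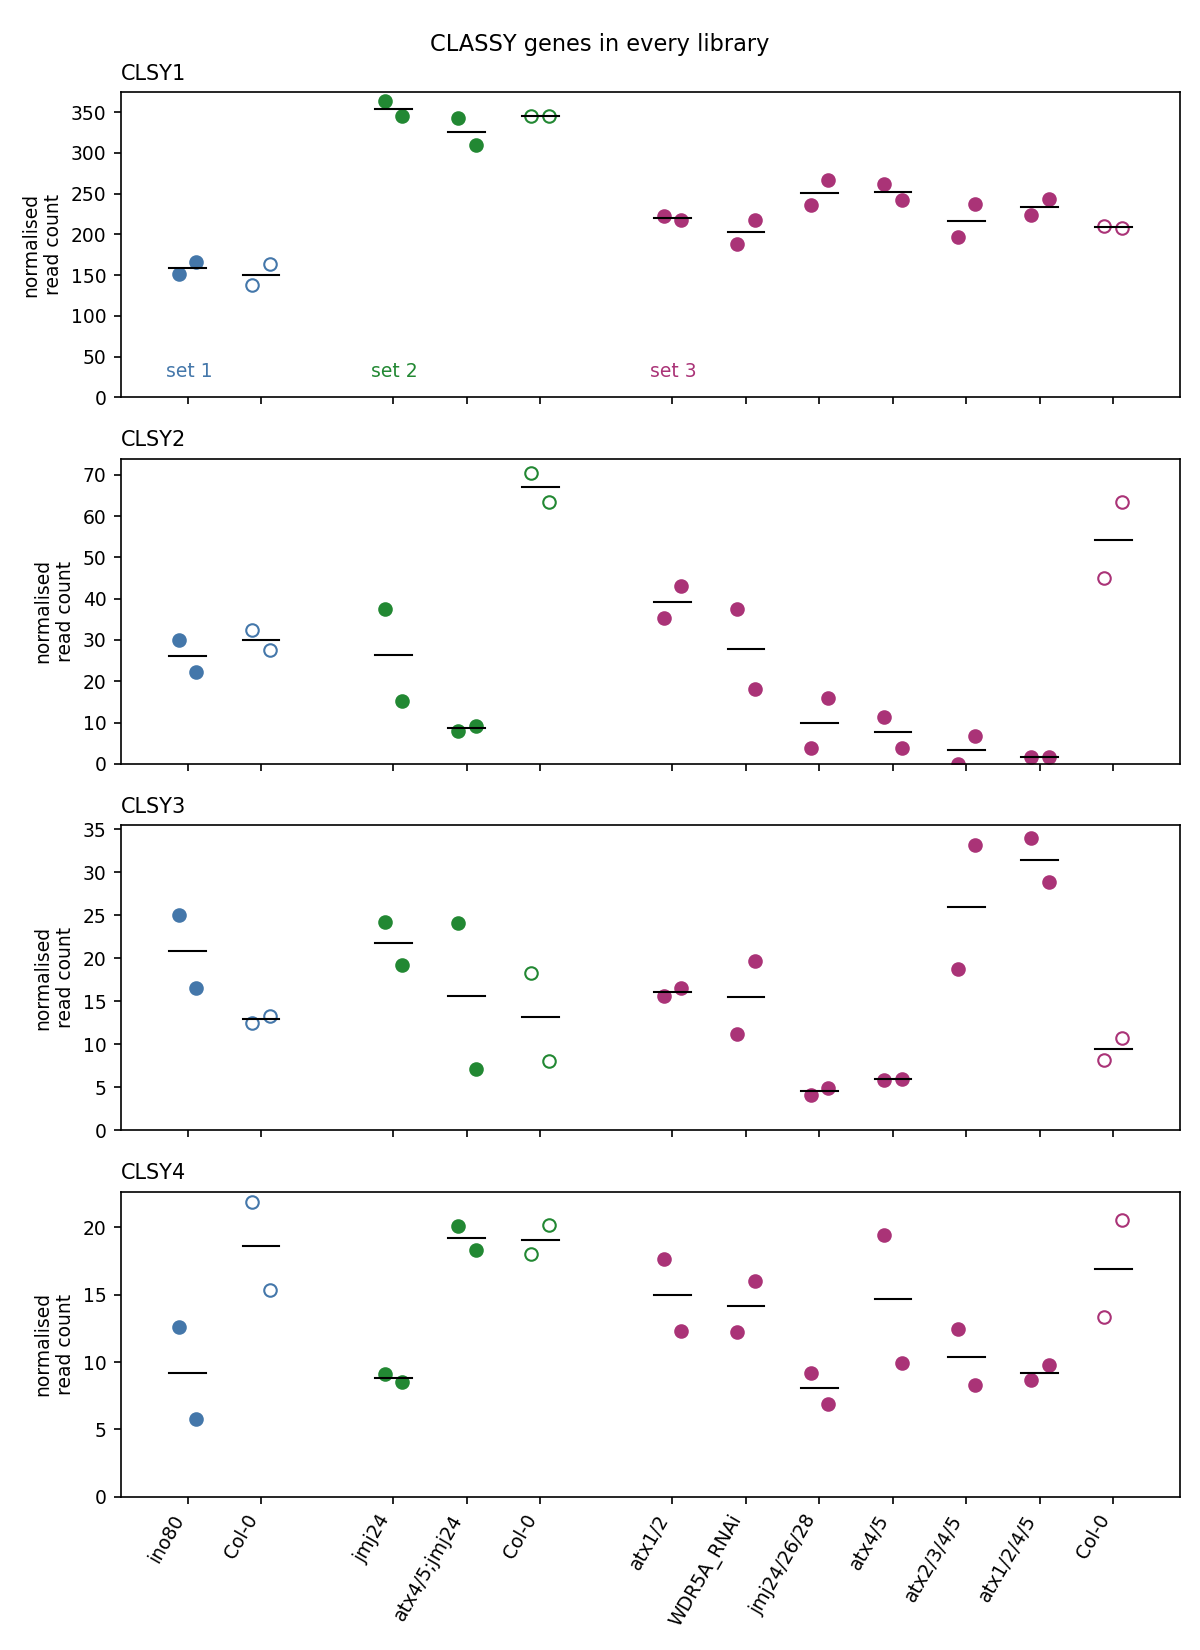
Normalised read counts of the CLASSY genes in every library (points) with the group mean (bar), for the 3 sets, each with Col-0 as open circles at its right and a linear axis from 0. CLSY2 lies between 0.0293 and 15.9 in atx1/2/4/5, atx2/3/4/5, atx4/5, jmj24/26/28 and atx4/5;jmj24, while CLSY1 stays near the Col-0 level of its set.

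CLSY1 passed the test in none of the 8 comparisons with Col-0 outside atx1/2/4/5. Its log2 fold changes lay between -0.09 and 0.26 with standard errors of 0.10 to 0.14, and the adjusted p-values of limma between 0.346 and 0.974. Where CLSY2 fell most, CLSY1 was at 196 and 237 normalised counts in atx2/3/4/5 against 210 and 208 in Col-0, and at 343 and 309 in atx4/5;jmj24 against 345 and 346 in Col-0. It was at 224 and 243 in atx1/2/4/5. In atx4/5, CLSY1 was at 262 and 242, and in jmj24/26/28 at 235 and 266, so all 4 of these libraries lay above both Col-0 libraries, without passing the test (adjusted p = 0.350 and 0.346). CLSY1 was at 363 and 345 in jmj24, at 151 and 166 in ino80 against 138 and 163 in Col-0, at 223 and 218 in atx1/2 and at 188 and 218 in WDR5A_RNAi. The counting interval for its read ratio was 0.896 to 1.19 in atx2/3/4/5 and 0.848 to 1.05 in atx4/5;jmj24, at 95% and for counting error only. It was 1.05 to 1.38 in atx4/5 and 1.05 to 1.36 in jmj24/26/28, which excluded equal read rates. In ino80, jmj24, atx1/2 and WDR5A_RNAi the interval included equal rates.

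CLSY3, a member with few reads in wild-type seedlings, rose in atx2/3/4/5. It was at 18.8 and 33.2 normalised counts there, against 8.19 and 10.8 in Col-0, and both atx2/3/4/5 libraries lay above both Col-0 libraries. The log2 fold change was 1.32 ± 0.41 (limma, adjusted p = 0.0175). The call rests on few reads and was lost without the second atx2/3/4/5 library (0.93, adjusted p = 0.178) or the first Col-0 library (1.15, adjusted p = 0.103). CLSY3 was also higher in atx2/3/4/5 than in atx4/5, at 5.84 and 5.98 (log2 fold change 1.91 ± 0.41, adjusted p = 0.00158). In atx1/2/4/5 it was at 34.0 and 28.9, above both Col-0 libraries. It was at 4.09 and 4.95 in jmj24/26/28 (log2 fold change -0.92, adjusted p = 0.276), so in set 3 its genotypes lay on both sides of Col-0. It was at 15.6 and 16.6 in atx1/2 and at 11.2 and 19.7 in WDR5A_RNAi, above both Col-0 libraries without passing the test. In set 1 CLSY3 was at 25.1 and 16.5 in ino80, against 12.5 and 13.3 in Col-0. In set 2 it was at 24.3 and 19.2 in jmj24 and at 24.1 and 7.18 in atx4/5;jmj24, against 18.3 and 8.09 in Col-0. The difference passed the test in none of these 3 genotypes.

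Marker lists moved in the libraries in which CLSY3 was highest, but the ovule and floral organ list also moved where CLSY3 was lowest. The 10 ovule and floral organ genes summed to 1074 and 1122 normalised counts in atx2/3/4/5 and to 1864 and 1650 in atx1/2/4/5, against 860 and 812 in Col-0, and 5 of the 9 that were tested were called higher in atx2/3/4/5. Of all 24843 genes in that comparison 4433 were called higher and 5000 lower, together the 38.0% given above. Of the 10, 1 gene was at 0 in each atx2/3/4/5 library, and 3 and 2 were at 0 in the Col-0 libraries. The ovule and floral sums were above both Col-0 sums in every other genotype of set 3 too. They were 1002 and 973 in jmj24/26/28 and 1021 and 973 in atx4/5, where CLSY3 was lowest. They were 927 and 904 in atx1/2, and 1171 and 1261 in WDR5A_RNAi. The 10 genes of dividing cells summed to 6728 and 6401 in atx2/3/4/5 and to 6201 and 6886 in atx1/2/4/5, against 5007 and 5685 in Col-0, with 4 of 10 called higher in atx2/3/4/5 and none at 0. All 7 leaf photosynthesis genes were called lower in atx2/3/4/5, with sums of 737863 and 759368 against 1442156 and 1331577 in Col-0. The 8 root genes summed to 8073 and 7637 in atx2/3/4/5, between the Col-0 sums of 8151 and 6683, with 2 called higher. The part of tissue makeup in the CLSY3 difference was not tested.

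CLSY4 passed the test in none of the 8 comparisons (limma, adjusted p 0.127 to 0.999). It was at 9.11 and 8.53 normalised counts in jmj24, against 18.0 and 20.2 in Col-0 (log2 fold change -1.03, adjusted p = 0.231). It was at 12.6 and 5.80 in ino80, against 21.8 and 15.4 in Col-0, and at 9.19 and 6.92 in jmj24/26/28, against 13.3 and 20.5 in Col-0. In these 3 genotypes both libraries lay below both Col-0 libraries, an order for which an exact permutation test gives a 2-sided p no lower than 0.333. In atx4/5;jmj24 it was at 20.1 and 18.3, close to Col-0, and the difference of 1.04 on the log2 scale between atx4/5;jmj24 and jmj24 did not pass the test (adjusted p = 0.383). It was at 12.4 and 8.30 in atx2/3/4/5 and 8.64 and 9.76 in atx1/2/4/5, all below Col-0, and at 17.6 and 12.3 in atx1/2, 19.4 and 9.95 in atx4/5 and 12.2 and 16.0 in WDR5A_RNAi. The estimated reads behind these values were 5 to 40 per library for CLSY3 and 6 to 21 for CLSY4.

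**Figure D3:**
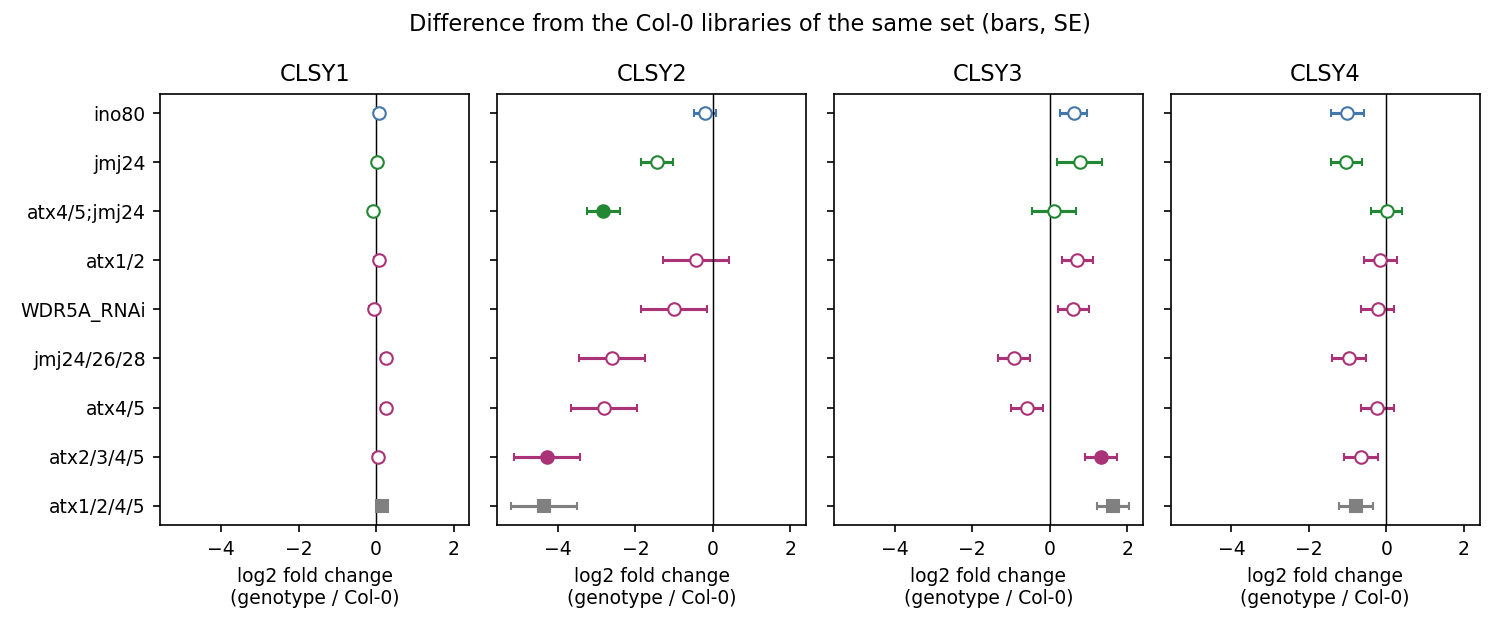
Log2 fold change of each CLASSY gene, genotype over the Col-0 libraries of its set, with standard error bars. Filled circles passed an adjusted p of 0.05 (CLSY2 in atx4/5;jmj24 and atx2/3/4/5, CLSY3 in atx2/3/4/5), open circles did not, and grey squares are atx1/2/4/5, for which no test is given.

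CLSY1 carried most of the family's level, and the sum over the 4 members stayed within the spread of the libraries in set 3. It was 2.44 ± 0.37 normalised reads per kilobase per M in atx2/3/4/5 and 2.53 ± 0.11 in atx1/2/4/5, against 2.44 ± 0.21 in Col-0 (SD, n = 2 each). In set 2 it was 3.55 ± 0.38 in atx4/5;jmj24 and 3.85 ± 0.32 in jmj24, against 4.17 ± 0.07 in Col-0. The makeup of the sum did change. CLSY2 gave 1.99% and 2.60% of it in atx4/5;jmj24, against 15.3% and 14.2% in Col-0, and 0.0127% and 2.33% in atx2/3/4/5, against 16.0% and 20.6% in Col-0. CLSY3 gave 7.23% and 10.3% in atx2/3/4/5, more than CLSY2, against 2.58% and 3.10% in Col-0.

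The nearest expressed neighbour of CLSY2 was lower in some of the genotypes with low CLSY2 and not in others. MGD2, a galactolipid synthase gene, ends 6 bases from CLSY2 on its downstream side. It was at 359 and 258 normalised counts in atx4/5;jmj24, against 202 and 355 in Col-0 (log2 fold change 0.18 ± 0.31, limma, adjusted p = 0.812). In atx2/3/4/5 it was at 355 and 344, against 584 and 558 in Col-0, and fell by 0.71 on the log2 scale (adjusted p = 8.70e-05). MGD2 was also called lower in ino80 by -0.94, where CLSY2 was not, in WDR5A_RNAi by -0.93 and in jmj24/26/28 by -0.58. It was at 336 and 391 in atx1/2/4/5, below both Col-0 libraries, and was not called in atx4/5, at 551 and 492. AT5G20400, annotated as an oxygenase, was higher in atx2/3/4/5 at 560 and 592, against 386 and 342 in Col-0 (log2 fold change 0.66, adjusted p = 8.47e-05). The nearest upstream gene, AT5G20430, begins 429 bases away and held between 0 and 5.07 normalised counts in every library.

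Among the genes that varied most in set 3, several followed CLSY2. The measure was Pearson's r of log2 values over 14 libraries of 7 genotypes, which include those used to choose the family, and it was computed against 362 genes with a mean of at least 20 and an SD of at least 1. The highest r was 0.922 for AT3G19230, annotated as a leucine-rich repeat protein. The next were AT1G01725 (r = 0.876), TRFL8 (r = 0.865), whose name stands for a protein like telomere repeat binding factors, AT1G29600 (r = 0.864), a zinc finger gene, AT3G46370 (r = 0.858), AT4G13800 (r = 0.858), AT5G55570 (r = 0.858) and AT1G49360 (r = 0.854), an F-box gene. These r values are descriptions. The values of the other sets did not enter the choice of these 8 genes. Genotypes of set 3 that did enter it carry atx4, atx5 and jmj24 mutations, as those of set 2 do. The set 2 values are therefore not an independent test. The shares of genes called that follow are over all genes tested, not over the 362. In atx4/5;jmj24 all 8 were lower than in Col-0 and 6 passed the test, with a median log2 fold change of -2.37, against 7.71% of all genes called in either direction. TRFL8 was at 5.02 and 6.10 normalised counts in atx4/5;jmj24, against 116 and 70.6 in Col-0 (log2 fold change -3.81 ± 0.37, adjusted p = 1.05e-04). In jmj24 7 of the 8 were lower and 2 passed the test, AT3G19230 and TRFL8, against 2.82% of all genes. In ino80, where CLSY2 differed little, 7 of the 8 were lower and 5 passed the test, against 22.4% of all genes. AT3G19230 was at 3.87 and 1.93 in ino80, against 55.3 and 61.3 in Col-0 (log2 fold change -3.97 ± 0.38, adjusted p = 1.22e-04), so it parted from CLSY2 there.

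**Figure D4:**
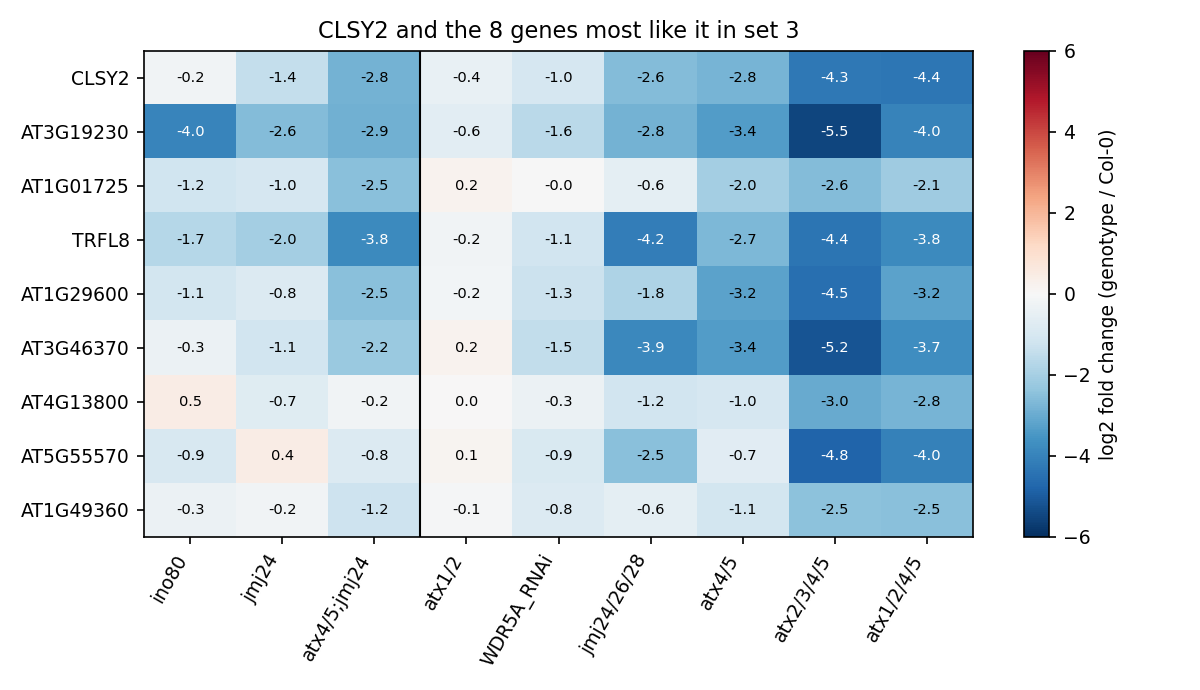
Log2 fold change, genotype over the Col-0 libraries of its set, for CLSY2 (top) and the 8 genes with the highest Pearson r to it in set 3, with sets 1 and 2 left of the black line. Blue cells are lower than Col-0. The column of atx4/5;jmj24 is below 0 in all 9 cells, and in ino80 AT3G19230 is at -3.97 where CLSY2 is at -0.20.

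The genes most like the other members, out of 5938 with an SD of at least 0.3, were different ones. CLSY3 was followed most closely by AT3G58270 (r = 0.940), AT3G22550 (r = 0.939) and CRK30 (r = 0.930), a receptor-like kinase gene, then AT1G03495 and AT5G54710. For CLSY4 the first was MAP1B (r = 0.818), a methionine aminopeptidase gene, with AT5G38865, GSO2, AT1G05340 and AIRP1 after it. For CLSY1, which varied little, the first was AT4G20230 (r = 0.764), with CNGC18, AT2G40711, ALD1 and XTH5 after it. In set 2, none of the 5 genes most like CLSY3 was called higher in atx4/5;jmj24 and 1 was called lower, and of the 5 most like CLSY4, 3 were called lower there, where CLSY4 itself was close to Col-0 and 7.71% of all genes were called.

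The rest of the RNA-directed DNA methylation pathway was described through 29 genes, 9 for polymerase IV and small RNA production and 20 for polymerase V, ARGONAUTE and methylation. The partner of CLSY1 and CLSY2, SHH1, was called in no comparison, for example at 205 and 215 normalised counts in atx2/3/4/5 against 179 and 191 in Col-0, and at 220 and 218 in atx4/5;jmj24 against 196 and 212 in Col-0. NRPD1, the largest subunit of polymerase IV, rose in atx4/5;jmj24, where CLSY2 fell, to 362 and 368 against 189 and 171 in Col-0 (log2 fold change 1.02 ± 0.12, limma, adjusted p = 4.48e-04). In atx2/3/4/5 NRPD1 was at 224 and 244, against 190 and 255 in Col-0, and was not called. RDR2, which makes the small RNA precursors double-stranded, was called higher in atx4/5 by 0.52 (adjusted p = 0.0397). HEN1, which methylates small RNAs, was called higher in atx2/3/4/5 by 0.32. NRPD4, a subunit of polymerases IV and V, was called lower in ino80 by -0.76. No other polymerase IV or small RNA gene of the list was called in a comparison with Col-0, and the list's median log2 fold change was 0.06 in atx4/5;jmj24 and 0.13 in atx2/3/4/5, against 0.00 for all genes.

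Downstream of the small RNAs, IDN2 and FDM2, which encode related RNA-binding proteins of the effector complex, were lower in many of the genotypes in which CLSY2 was low. IDN2 was at 520 and 575 normalised counts in atx2/3/4/5 against 848 and 1064 in Col-0 (log2 fold change -0.80 ± 0.10, adjusted p = 1.93e-05), and at 529 and 531 in atx4/5;jmj24 against 903 and 975 in Col-0 (-0.82 ± 0.08, adjusted p = 6.68e-05). It was also called lower in jmj24, atx4/5, WDR5A_RNAi and ino80. FDM2 was at 110 and 122 in atx2/3/4/5 against 269 and 305 in Col-0 (log2 fold change -1.30 ± 0.17, adjusted p = 1.88e-05), and was called lower in atx1/2, atx4/5, jmj24, atx4/5;jmj24 and ino80. In ino80, where CLSY2 differed little from Col-0, IDN2 was at 305 and 286 against 619 and 717, and FDM2 at 47.0 and 72.2 against 171 and 183. AGO9, an ARGONAUTE known from reproductive tissue, rose in atx2/3/4/5 to 30.1 and 33.6 against 3.07 and 2.93 in Col-0, and was called higher in ino80 and atx4/5;jmj24 too. Of the 29 genes, 10 were called in atx2/3/4/5, 8 of them higher, beside the 38.0% of all genes called. In atx4/5;jmj24 5 of 29 were called, 3 of them higher, beside 7.71%. In jmj24/26/28, none of the 29 was called by limma, beside 3.85%, although CLSY2 was at 3.71 and 15.9 there.

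**Figure D5:**
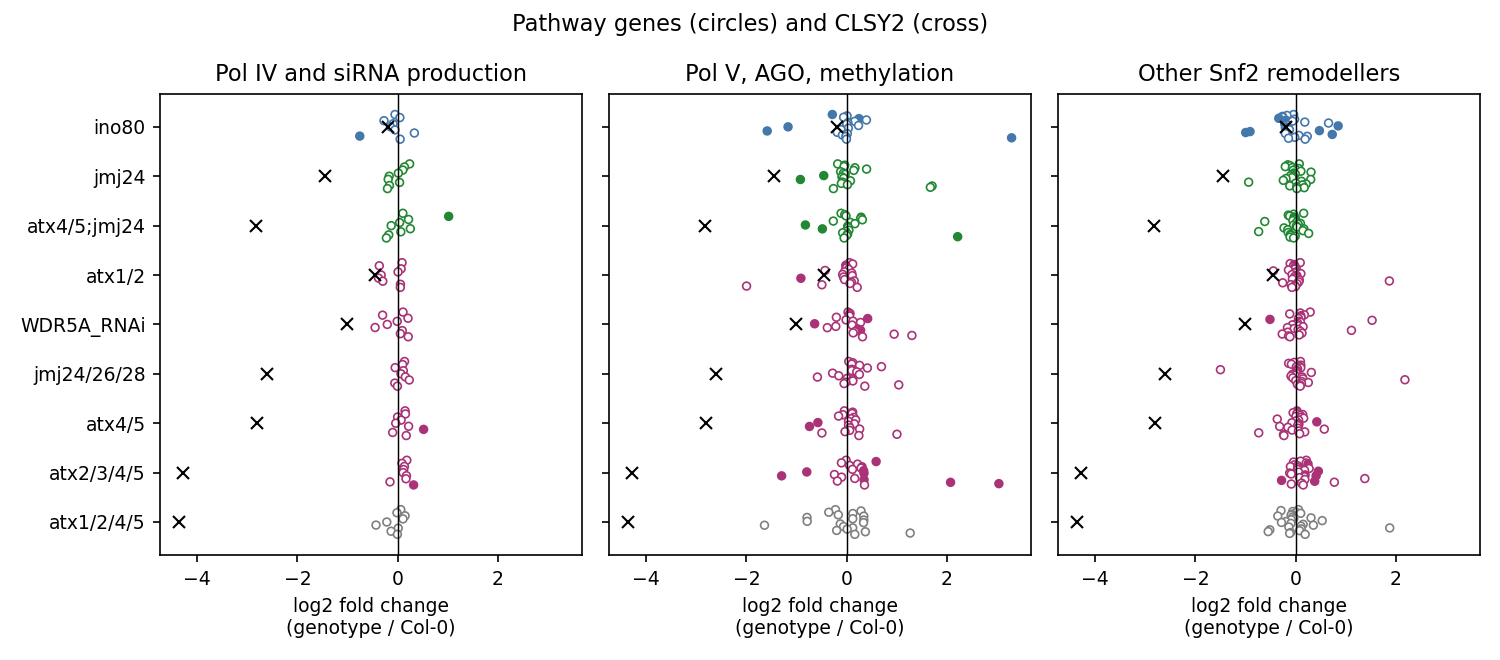
Log2 fold change, genotype over Col-0, for the polymerase IV list, the polymerase V and methylation list and the other Snf2 remodellers (circles, 1 per gene, filled where the adjusted p was under 0.05) and for CLSY2 (cross). Circles of atx1/2/4/5 carry no test. In atx4/5;jmj24, jmj24/26/28, atx4/5 and atx2/3/4/5 the cross of CLSY2 lies left of every circle. So does the cross in atx1/2/4/5, which is the value the family was chosen by. The other set 3 genotypes share its Col-0 libraries, so their crosses are not independent of that choice.

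The other Snf2 remodeller genes were described beside CLSY2, a class that includes DDM1, which maintains methylation, and DRD1, the polymerase V partner. Of 28 such genes, none was called by limma in atx4/5;jmj24, beside 7.71% of all genes, and the lowest log2 fold change among them was -0.74, of PKR2, against -2.83 for CLSY2. In atx2/3/4/5, 6 of the 28 were called, 5 higher and 1 lower, beside 38.0% of all genes. The one called lower was CHR23 at -0.28, and CHR10 was among the higher ones at 0.45, beside -4.27 for CLSY2. In jmj24, atx1/2 and jmj24/26/28 none of the 28 was called, beside 2.82%, 0.282% and 3.85% of all genes. In ino80, where CLSY2 was not called, 11 of the 27 tested were called, 8 lower and 3 higher, beside 22.4% of all genes. INO80 itself was among the lower ones at 892 and 858 normalised counts against 1701 and 1798 in Col-0.

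Genes that maintain or remove DNA methylation moved both ways. Of 13 such genes, 7 were called in atx2/3/4/5, 3 higher and 4 lower, beside 38.0% of all genes, and 3 in atx4/5;jmj24, all lower, beside 7.71%. ROS1, a demethylase gene whose own transcript is known to depend on methylation near its start, was at 573 and 546 normalised counts in atx2/3/4/5 against 1538 and 1595 in Col-0 (log2 fold change -1.48 ± 0.11, limma, adjusted p = 8.73e-08). It was called lower in atx4/5 by -0.71, in WDR5A_RNAi by -0.93 and in atx4/5;jmj24 by -0.32, and not in jmj24/26/28 or jmj24. DML2, another demethylase gene, was at 139 and 142 in atx4/5;jmj24 against 559 and 643 in Col-0 (log2 fold change -2.08 ± 0.13, adjusted p = 3.97e-06). It was called lower in jmj24/26/28 by -1.97, in jmj24 by -1.49, in ino80 by -1.43 and in atx4/5 by -0.90, and was not called in atx2/3/4/5. DML3, a related demethylase gene, was at 107 and 78.6 in atx2/3/4/5 against 322 and 352 in Col-0 and was called lower by -1.87, while DME, the demethylase gene known from the central cell of the ovule, was called in no comparison with Col-0. MET1, the maintenance methyltransferase gene, rose in atx2/3/4/5 by 0.53. Among 6 genes known as targets of silencing or tuning by DNA methylation, 3 were called in atx2/3/4/5, 2 higher and 1 lower. SDC rose in atx2/3/4/5, to 14.6 and 24.1 against 2.04 and 0.969 in Col-0 (log2 fold change 3.01 ± 0.51, adjusted p = 2.27e-04). In WDR5A_RNAi, where CLSY2 was at 37.6 and 18.1, SDC rose by 3.21 ± 0.51. In atx4/5;jmj24 SDC was not called, but it was at 0.00109 and 3.04 against 0.915 and 0.000988 in Col-0. These values are too low to show whether it differed. SDC was also not called in atx1/2 (2.03 ± 0.51), atx4/5 (0.16 ± 0.51) or jmj24/26/28 (-0.79 ± 0.51). CML41, a calmodulin-like gene, was at 192 and 176 in atx2/3/4/5 against 32.7 and 33.2 in Col-0 (log2 fold change 2.44 ± 0.33, adjusted p = 2.81e-05), and was called higher in jmj24/26/28, jmj24 and ino80 too. QQS went the other way and was at 11.4 and 15.0 in atx2/3/4/5 against 36.8 and 55.7 in Col-0 (log2 fold change -1.72 ± 0.47, adjusted p = 0.00903). It was at 17.1 and 19.3 in atx4/5;jmj24 against 789 and 652 in Col-0 (log2 fold change -5.23 ± 0.22, adjusted p = 2.06e-07), and was called lower in jmj24, jmj24/26/28, atx4/5 and ino80. FWA, HISN6B and EPF2 were called in no comparison with Col-0 in which they were tested. HISN6B did not pass the filter in set 1 and was not tested in ino80, and FWA had few reads. DNA methylation itself was not measured in these libraries.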

How the data were processed

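Total RNA of 24 seedling libraries was sequenced, as 150-base paired or 50-base single reads per the labels' protocols, which do not say which library had which. HISAT2 2.2.0, edgeR and the TAIR10 build were used per the submitters' processing notes. The counter, strand and filters are not given in the sources used here. The authors deposited 3 tables of 32548 genes whose values are a normalised signal per gene: from their pattern, read counts adjusted to a common library size within a table, not whole numbers and not scaled for length. Count models were therefore not run. The worth of 1 read was estimated from the spacing of low values.

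Genes reaching 1 in 2 or more libraries of a set were kept, and log2(value + 1), which understates the change of low genes, was fitted with limma 3.58.1 (R 4.3.3, statmod 1.5.0) over all groups of a set, using robust empirical Bayes moderation with a trend on the mean. P-values were adjusted over all genes tested by the Benjamini-Hochberg method, and 0.05 was the threshold. An exact permutation test of 2 libraries against 2 cannot give a 2-sided p below 0.333. The fit was tested on simulated data. Levels were divided by the union of annotated exons and the column total. Coding sequences were aligned pairwise with Biopython 1.88. All 32548 identifiers matched RefSeq TAIR10.1, whose nuclear sequence is that of TAIR10.

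The members and all lists were chosen with earlier results of these data known. The text names all members everywhere, up to 5 called genes per list and comparison, the CLSY2 neighbours, and the 5 (8 for CLSY2) genes of highest Pearson r. The word searched before CLSY2 and the genes named for not being called were chosen after their values were seen. The alternatives were pseudocounts, filters, scalings, fits of 2 groups, a replicate block, single libraries left out, transcript length and rank correlation. The sequence before CLSY1 is not reported here.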

Additional observations from a re-analysis of the deposited data

How the results depend on the processing

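The CLSY2 falls in atx2/3/4/5 and atx4/5;jmj24 kept their direction and passed the test under every alternative run, except that the fall in atx4/5;jmj24 (-2.83) missed it with no filter on low values (adjusted p = 0.222) and with no mean-variance trend (adjusted p = 0.105). Other CLSY2 differences from Col-0 came to pass it. These were atx4/5 with a pseudocount of 5 (-2.28, adjusted p = 0.0218), with only the 2 groups in the fit (-2.81, adjusted p = 0.0201) and with atx2/3/4/5 left out of the fit (-2.81, adjusted p = 0.0188), and jmj24/26/28 with a pseudocount of 5 (-2.12, adjusted p = 0.0273) and with atx2/3/4/5 left out (-2.61, adjusted p = 0.0251). The last setting was chosen after seeing the data. With a pseudocount of 5 the untested atx1/2/4/5 value was -3.14. The cause of these shifts was not tested.

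Leaving out 1 library in turn, CLSY2 ranged from -0.40 to 0.0013 in ino80, and from -2.92 to -0.014 in atx2/3/4/5 against atx4/5. CLSY1 ranged from -0.047 to 0.20 in ino80, from -0.0032 to 0.072 in jmj24, from -0.092 to 0.18 in atx2/3/4/5 and from -0.16 to 0.059 in WDR5A_RNAi, where quantile normalization also turned its sign (0.021). CLSY3 ranged from -0.69 to 0.92 in atx4/5;jmj24 against Col-0 and from -1.47 to 0.15 against jmj24. CLSY4 ranged from -0.069 to 0.088 in atx4/5;jmj24, from -0.45 to 0.14 in atx1/2, from -0.68 to 0.22 in atx4/5, from -0.52 to 0.069 in WDR5A_RNAi and from -0.87 to 0.028 in atx2/3/4/5 against atx4/5. None of these sign changes touched a called value.

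Same-numbered libraries of set 3 had deviations correlated at 0.0044 to 0.45 over 21 pairs of genotypes, with a median of 0.18. All were positive and 15 were over 0.1, so libraries of the same number may share a source of variation. The labels name none, and the main fit had no term for it. With the replicate block, CLSY2 in atx2/3/4/5 stayed at -4.27 (adjusted p = 0.00193), in atx4/5 at -2.81 (adjusted p = 0.0945), and no CLASSY call changed. Of the 8 genes named as most like CLSY2, 4 were shared with the choice by Spearman's rho and 5 with the choice without atx1/2/4/5. For CLSY1, CLSY3 and CLSY4, 1, 2 and 1 of 5 were shared with the rank choice, so those names depend on the measure. In Col-0, depth limits CLSY3 and CLSY4 most, with 8 to 21 estimated reads per library. In atx2/3/4/5 and atx1/2/4/5 it limits CLSY2 most, with 6 and 4 estimated reads per pair of libraries.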
